A study of Mus musculus with 6 samples.

Results

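Gm5541 (ENSMUSG00000103406.1) and Gm8332 (ENSMUSG00000095799.1) are 2 mouse genes of multicopy families, and they were taken by symbol and identifier from a table of 55401 genes. They were chosen by their higher level in the NFL group in the same 6 libraries and by their membership of multicopy families, so their own difference is given here as a description without a test. RNA was sequenced from mouse cells labelled T cell, which the deposited design describes as spleen cells positively selected with beads against CD8a. All 6 cultures received macrophage supernatant as 50% of a medium with 2% serum, and the macrophages had been grown from CD11b-selected spleen cells with 50 ng/mL M-CSF for 7 days. In the NFL group (n = 3) the macrophages had been activated for 24 h with 5 µg/mL neurofilament light chain (NFL), an axonal structural protein. This NFL is given as prepared from freeze-thawed sciatic nerve. The paper instead names a purchased NFL protein for its mouse treatment and describes freeze-thawed sciatic nerve as a separate nerve lysate. The origin of the NFL used here is therefore not settled. In the control group (n = 3) the macrophages were untreated, and no culture that received a nerve preparation without NFL was analysed here. The labels give neither strain nor age, and they do not say whether the 3 cultures of a group came from separate animals, so the spread between them may be technical.

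Both genes are poorly characterised copies of well-known families. Gm5541 lies in the Tdpoz cluster, whose genes encode proteins with a MATH domain and a BTB/POZ domain, the same pair of domains as Spop, the substrate adaptor of cullin-3 ubiquitin ligases. Gm8332 lies in a cluster of copies of Eif1a, which encodes translation initiation factor 1A, a small protein that binds the small ribosomal subunit and assists scanning for the start codon. Both clusters are known in the mouse for transcripts of oocytes and early embryos. The cluster of Gm8332 holds many copies that differ at few bases, so that a short read can align equally well to several of them. Gm5541 had only 2 relatives with at least 90% identity, Tdpoz4 and Gm4858, and the next, Gm9141, had 80.6%.

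In the GENCODE M21 annotation (GRCm38), Gm5541 is an unprocessed pseudogene of a single exon of 1113 bases on the minus strand at chr3:93628640-93629752. The transcript starts with ATG and holds 362 codons before the first stop. Gm8332 is a single exon of 435 bases on the minus strand at chr12:88249666-88250100, annotated there as protein-coding with 144 codons before the first stop, whereas RefSeq lists it as a pseudogene of 4133 bases. No other annotated gene overlaps either of them.

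The closest copies are shown first, because they set how far a count can be attributed to 1 gene. The next lines give bases 711 to 830 of the Gm5541 transcript (chr3:93628923-93629042, minus strand) and the aligned bases of its closest copies, Tdpoz4 and Gm4858. Capitals in the Gm5541 line mark bases that differ in at least 1 of the other 2 lines, and capitals in those lines mark bases that differ from Gm5541.
Gm5541: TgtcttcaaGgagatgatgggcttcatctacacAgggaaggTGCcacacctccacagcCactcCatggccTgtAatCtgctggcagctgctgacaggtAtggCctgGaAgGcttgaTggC
Tdpoz4: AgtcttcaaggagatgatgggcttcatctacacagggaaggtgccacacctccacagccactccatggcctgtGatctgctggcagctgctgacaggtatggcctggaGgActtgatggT
Gm4858: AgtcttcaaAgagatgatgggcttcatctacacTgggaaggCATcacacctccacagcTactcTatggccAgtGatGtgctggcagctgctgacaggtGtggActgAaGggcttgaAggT
Within these 120 bases Tdpoz4 differed from Gm5541 at 5 positions and Gm4858 at 17. Counted from 1 at the 5′ end of Gm5541, the Tdpoz4 changes were T711A, A784G, A819G, G821A and C830T.

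For Gm8332 the window covers bases 310 to 429 of the transcript (chr12:88249672-88249791, minus strand), with the aligned bases of Gm8300, Gm5662 and Eif1ax, the copy of the factor on the X chromosome. Capitals in the Gm8332 line mark bases that differ in Gm5662, and capitals in the other lines mark bases that differ from Gm8332.
Gm8332: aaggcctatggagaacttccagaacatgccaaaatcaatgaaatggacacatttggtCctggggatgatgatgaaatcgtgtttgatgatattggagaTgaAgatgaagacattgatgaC
Gm8300: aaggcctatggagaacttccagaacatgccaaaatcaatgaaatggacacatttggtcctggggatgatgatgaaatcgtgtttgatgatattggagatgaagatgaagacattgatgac
Gm5662: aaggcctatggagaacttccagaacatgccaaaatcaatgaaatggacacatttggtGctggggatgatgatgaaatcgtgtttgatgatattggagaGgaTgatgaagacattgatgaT
Eif1ax: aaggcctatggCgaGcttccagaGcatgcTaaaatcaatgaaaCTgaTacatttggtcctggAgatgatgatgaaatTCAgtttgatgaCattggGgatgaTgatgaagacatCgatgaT
Gm8300 was identical to Gm8332 in this window, Gm5662 differed at 4 positions (C367G, T408G, A411T and C429T, counted from the 5′ end of Gm8332), and Eif1ax differed at 16. Over the whole 435 bases Gm8300 carried 2 differences, T108C and A244C, and Gm5662 carried 6.

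Read totals were 15843045 to 24639756 per library, and 3 counts, taken as the limit of detection, were 0.122 to 0.189 CPM (read counts scaled to TMM-adjusted library sizes). Of 14082 genes tested with edgeR's quasi-likelihood test, 986 (7.00%) passed an adjusted p of 0.05, 489 (3.47%) of them higher and 497 (3.53%) lower in the NFL group. Scaled by library size alone, 971 genes passed, 372 higher and 599 lower. Of 9 T cell markers, Thy1 (1672 CPM in control, 1613 in NFL) and Cd3e (61.0 and 50.2 CPM, adjusted p = 0.00057 by edgeR) had the highest levels. Cd3g had 8.04 and 7.02 CPM, Cd3d 3.63 and 4.17, Trac 1.89 and 1.54, and Cd8b1 1.43 and 1.07. Cd8a, the antigen used for selection, reached at most 4.46 CPM in any library (median 3.92), Cd4 reached 27.6 CPM, and Cd2 was at 0 in every library, so the labelled CD8+ identity was not borne out by Cd8a. The summed levels of 9 T cell markers were 1720 to 1820 CPM in control and 1670 to 1760 in NFL, almost all from Thy1. Those of 3 natural killer cell markers were 459 to 482 CPM in control and 441 to 460 in NFL, mostly from Eomes (439.1 and 426.3 CPM), while Klrb1c was lower in NFL (31.7 and 22.4 CPM, log2 fold change -0.51, adjusted p = 2.4e-06, edgeR) and Ncr1 was at 0. Of 6 macrophage markers, 2 had more than 3 counts in a library, with summed levels of 24.5 to 27.5 CPM in control and 19.2 to 23.4 in NFL, almost all from Cd68, while Lyz2 stayed at or under 0.116 CPM and C1qa and C1qb were at 0. The part of these differences in the results that follow was not tested, and fewer cells of a type cannot be told apart from less RNA per cell.

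Gm5541 was higher in all NFL libraries. Its read counts were 2386, 1650 and 2497 in control and 2682, 2867 and 2933 in NFL, which gave levels of 97.0, 103.5 and 102.2 CPM against 166.6, 166.7 and 166.1 CPM. The groups did not overlap, and the NFL libraries lay closer together than the control libraries, at 166.5 ± 0.293 CPM against 100.9 ± 3.48 CPM (mean ± SD, n = 3 each). All 3 NFL libraries lay above all 3 control libraries in 1616 of the 14082 genes tested (11.5%), which is the background for such a pattern. The log2 fold change was 0.72 (SE 0.0382).

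Gm8332 was higher in all NFL libraries as well. Its counts were 4576, 3009 and 4536 in control and 4482, 5043 and 4556 in NFL, or 186.0, 188.8 and 185.7 CPM against 278.4, 293.2 and 258.1 CPM. The NFL libraries were more spread than the control libraries, at 276.5 ± 17.6 CPM against 186.8 ± 1.74 CPM (mean ± SD, n = 3 each), with NFL replicate 2 the highest and NFL replicate 3 the lowest. The log2 fold change was 0.57 (SE 0.0353). In raw counts control replicate 1 exceeded NFL replicates 1 and 3, because it was sequenced more deeply, and only the scaled levels separated the groups.

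**Figure D1:**
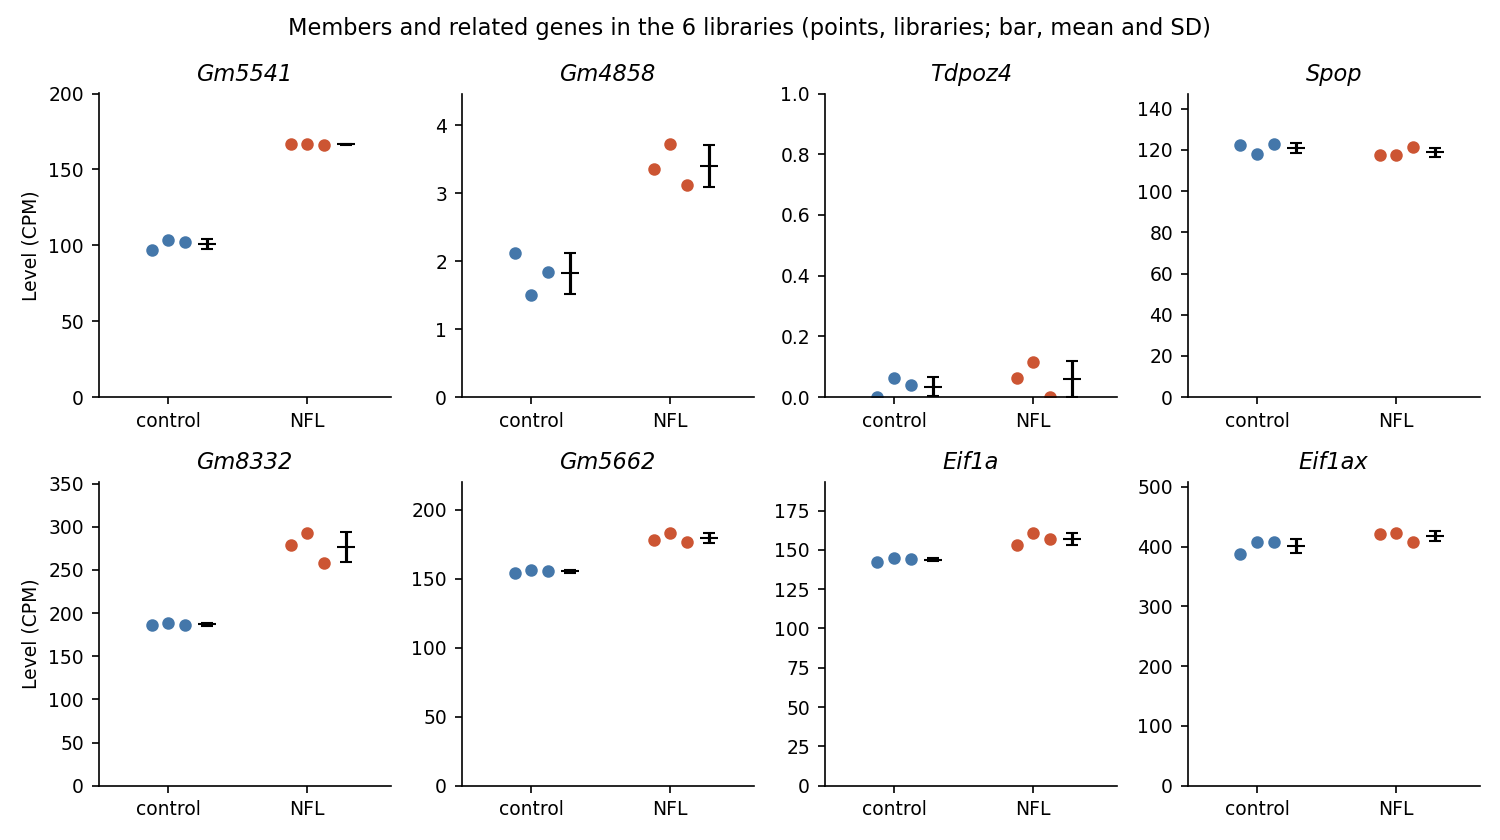
Level in CPM (y axis, from 0, with its own scale in each panel) of Gm5541, Gm8332 and related genes in the control and NFL groups. Points are the 3 libraries of a group, and the black bars give the mean and SD. Gm5541 (100.9 to 166.5 CPM on average) and Gm8332 (186.8 to 276.5 CPM) separate the groups widely, Gm5662 and Eif1a by less, Spop and Eif1ax overlap between groups, and Tdpoz4 stays at or near 0.

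The size of both differences stood out among abundant genes as a description. Of 2655 tested genes with a mean level of at least 100 CPM, Gm5541 had the highest log2 fold change (rank 1) and Gm8332 the fifth (rank 5). The genes between them were Nfkb2 (0.72), a precursor of the NF-κB subunit p52, Lta (0.68), the cytokine lymphotoxin alpha, and Cd74 (0.66), the invariant chain of MHC class II. Next below Gm8332 came Tmsb10, an actin-binding peptide, at 0.38. Among all 14082 tested genes, where genes with few counts reach large fold changes, the ranks were 161 and 316.

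Both were also abundant for predicted genes. Per kilobase of exon, Gm8332 had 429 CPM per kb in control and 636 in NFL, the highest of the 2000 tested genes with a symbol of Gm and digits. Gm5541 had 90.7 and 150 CPM per kb and ranked 14 among them. By CPM alone, Gm8332 ranked 2 and Gm5541 ranked 8 among these genes. The value of Gm8332 per kilobase uses its GENCODE exon of 435 bases, whereas RefSeq lists 4133 bases, and its count can hold reads of its copies.

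The Tdpoz-like relatives of Gm5541 were close to absent, with 1 exception. The transcript of Gm5541 aligned to 30 other genes, of which 9 were at 0 in all libraries and 18 had at most 3 counts in each library. Over all 55401 genes these counts were 26233 and 34483. Tdpoz4, the only relative with at least 95% identity (97.3% over 1113 bases, 30 differences, chr3:93796398-93797510), had 0, 1 and 1 counts in control and 1, 2 and 0 in NFL. Tdpoz4 was therefore not detectable above 3 counts in any library, and Gm5541 held 99.9% to 100% of the summed counts of the pair. Tdpoz1, Tdpoz3 and Tdpoz5 had 3, 6 and 0 counts over all 6 libraries, and Tdpoz2 had 22.

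Gm4858, a protein-coding copy with 94.3% identity over 1097 bases (chr3:93068823-93075505), rose with Gm5541 at a far lower level. It had 2.11, 1.51 and 1.84 CPM in control and 3.35, 3.72 and 3.12 CPM in NFL, without overlap. Its log2 fold change was 0.88 (SE 0.244, adjusted p = 0.0169, edgeR quasi-likelihood test, higher in 3 of 3 NFL libraries than in any control library). The call was lost without NFL replicate 2 (adjusted p = 0.102) and without NFL replicate 3 (adjusted p = 0.0513, both by edgeR). Gm4858 shared 93 of the 1014 distinct 100-base windows of Gm5541 exactly, so this test is not fully separate from the reads of Gm5541, and the part of shared reads was not tested. Per kilobase it had 0.850 CPM in control and 1.59 in NFL, against 90.7 and 150 for Gm5541.

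The distant relatives Spop and Spopl gave no call. Spop (73.1% identity over 1057 bases) had 118.2 to 122.8 CPM in control and 117.3 to 121.5 in NFL, with a log2 fold change of -0.03 (SE 0.0391, adjusted p = 0.771, edgeR). Spopl, its paralogue, averaged 46.6 and 46.7 CPM, with adjusted p = 0.983 by edgeR. Of the 3 relatives of Gm5541 that could be tested, 1 was higher, namely Gm4858, and 0 were lower, where the background over all genes is 3.47% and 3.53%.

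The relatives of Gm8332 included abundant genes. With at least 95% identity over 150 bases or more, 20 genes were similar to Gm8332, 19 of them between 87494721 and 88329682 on chromosome 12, together with Eif1a on another chromosome. Of these, 5 had at most 3 counts in each library and 6 could be tested, of which 2 were higher and 0 lower in NFL (background 3.47% and 3.53%). The median log2 fold change of the 6 was 0.10, against 0.00 over all genes tested.

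Gm5662, a protein-coding copy at chr12:88270640-88274500 with 98.6% identity, was 1 of the pair that rose. Its levels were 154.1, 156.1 and 155.9 CPM in control and 178.2, 183.5 and 176.9 CPM in NFL, without overlap. The log2 fold change was 0.21 (SE 0.0347, adjusted p = 2.4e-05, edgeR), and without 1 library at a time the adjusted p stayed between 3.3e-06 and 0.00085. Gm5662 and Gm8332 shared the order of the NFL libraries, with replicate 2 highest and replicate 3 lowest in both. Gm5662 shared 171 of the 336 distinct 100-base windows of Gm8332 exactly. Neither its test nor this order is therefore separate from the reads of Gm8332, and the part of shared reads was not tested.

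Eif1a itself was the other. It had 142.5, 144.6 and 144.3 CPM in control and 153.1, 161.0 and 156.8 CPM in NFL, a log2 fold change of 0.13 (SE 0.0361, adjusted p = 0.0197, edgeR). The call was lost without control replicate 1 (adjusted p = 0.0812), without NFL replicate 2 (0.137) and without NFL replicate 3 (0.0856, all by edgeR). Eif1ax, with 85.1% identity and outside the set of similar genes, had 387.4 to 408.4 CPM in control and 407.6 to 423.3 in NFL, with overlap (log2 fold change 0.06, SE 0.0299, adjusted p = 0.289, edgeR). Per kilobase in control, Gm8332 stood at 429 CPM per kb, Gm5662 at 84.5, Eif1ax at 76.2 and Eif1a at 34.5.

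The remaining similar genes were low. Gm8300, the nearest copy with 99.5% identity, had only 32 counts over all 6 libraries, at 0.325, 0.314 and 0.328 CPM in control and 0.248, 0.174 and 0.227 CPM in NFL, too few to be tested. Gm2016 (98.6% identity) averaged 3.42 CPM in control and 3.61 in NFL (log2 fold change 0.07, adjusted p = 0.914), and Gm2022 (98.9%) averaged 1.46 and 1.68 CPM (log2 fold change 0.20, adjusted p = 0.804, both edgeR). Gm5039 and BB287469 had log2 fold changes of -0.21 and -0.10 (adjusted p = 0.823 and 0.943, edgeR). The levels of all 4 overlapped between groups.

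**Figure D2:**
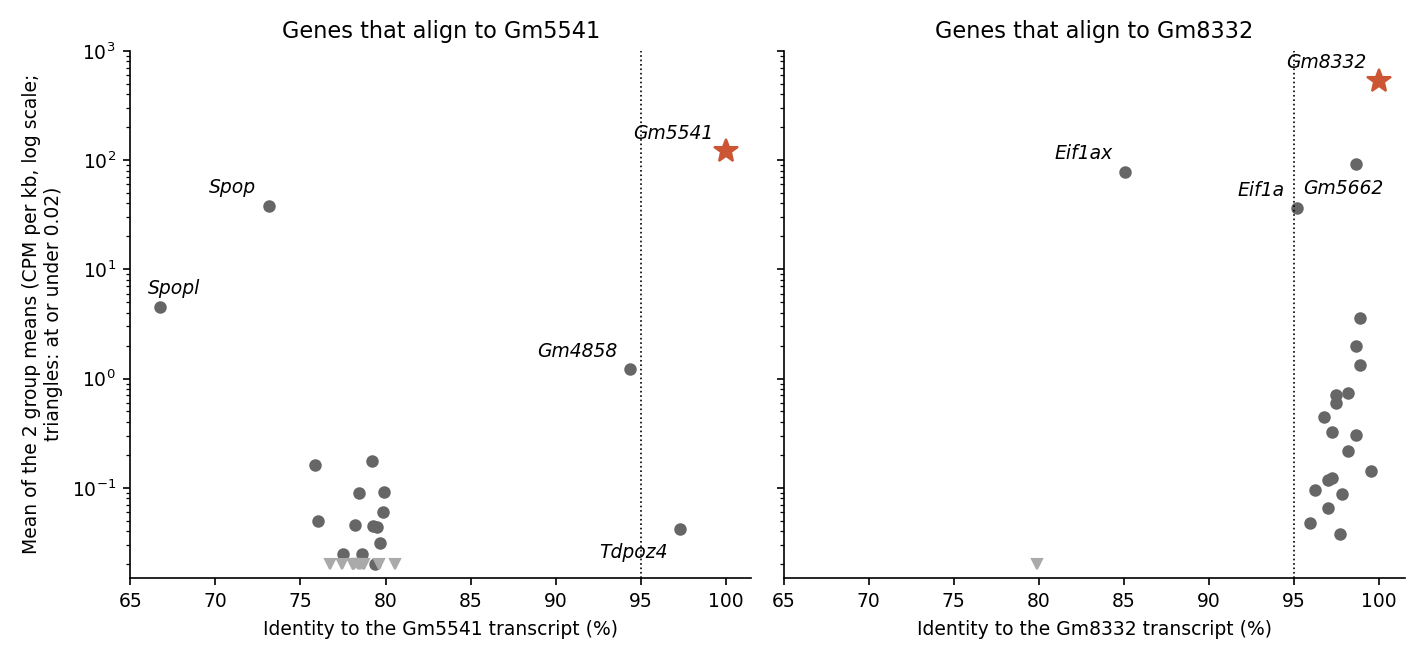
Identity to the transcript of Gm5541 (left) or Gm8332 (right) in percent (x axis) against the mean of the 2 group means in CPM per kb (y axis, log scale) for every gene that aligned. Stars are Gm5541 and Gm8332 themselves, triangles are genes at or under 0.02 CPM per kb, and the dotted line is 95% identity. The gene nearest in sequence is not the nearest in level: Tdpoz4 with 97.3% and most copies of Gm8332 lie far below, while Gm5662 and the less similar Eif1a, Eif1ax and Spop lie nearer.

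As copies can exchange reads, the similar genes were also summed. The 20 similar genes without Gm8332 had 306.6, 309.0 and 309.0 CPM in control and 341.5, 353.4 and 344.0 CPM in NFL (log2 fold change 0.17, SE 0.030, adjusted p = 8e-05, edgeR). By an exact two-sided permutation test over samples this sum gave p = 0.1, the smallest value that 3 against 3 samples allow. Leaving out Gm8332 does not separate this sum from its reads, because 0 of its 336 windows of 100 bases were its own. The group means of the sum differed by 38.1 CPM, mostly from Gm5662 (24.2 CPM) and Eif1a (13.2 CPM), so the sum largely repeats their results. With Gm8332 included the sum was 495.0 CPM in control and 622.9 in NFL, and the log2 fold change was 0.33 (SE 0.0288), against 0.57 for Gm8332 alone. The sum therefore rose by 128.0 CPM, of which Gm8332 made up 89.7 CPM (70.2%), Gm5662 24.2 CPM (18.9%) and Eif1a 13.2 CPM (10.3%). None of the 6 similar genes that could be tested was called lower, and 4 of the 6 estimates were above 0.

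The share of Gm8332 in these summed counts was 37.8%, 37.9% and 37.5% in control and 44.9%, 45.3% and 42.9% in NFL. The groups did not overlap, at 37.7 ± 0.208% and 44.4 ± 1.29% (mean ± SD, n = 3 each), and the Wilson 95% intervals of single libraries, which cover counting error only, ran from 36.7% to 39.0% in control and from 41.9% to 46.3% in NFL. The shares of Gm5662 (31.4% to 28.9% on average) and Eif1a (29.0% to 25.2%) were accordingly smaller in NFL, although their levels were higher. For Gm5541 with Gm4858 and Tdpoz4, its share was 97.9%, 98.5% and 98.2% in control and 98.0%, 97.7% and 98.2% in NFL, which overlapped.

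**Figure D3:**
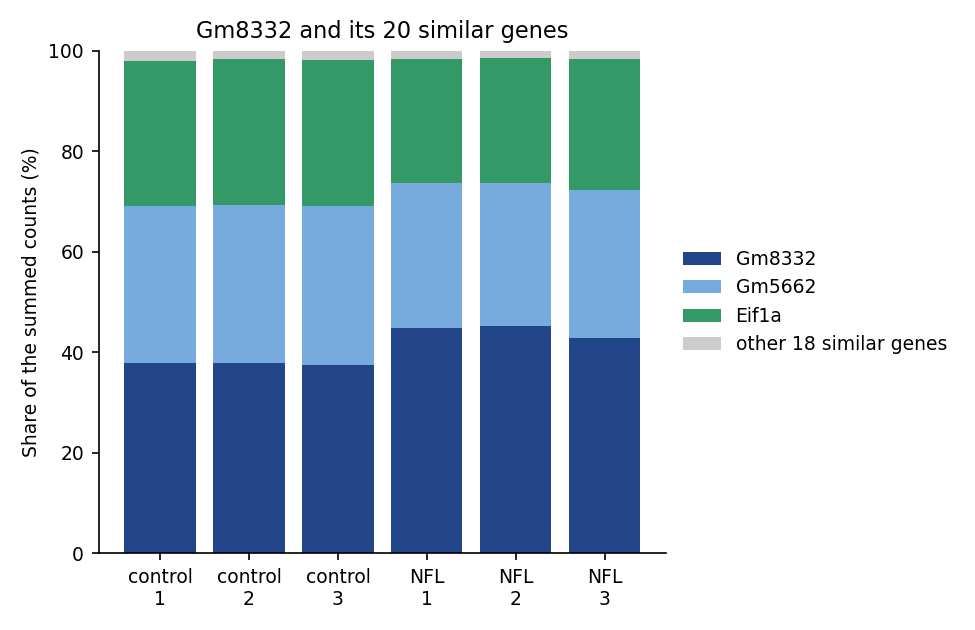
Share of the summed read counts of Gm8332 and its 20 similar genes (y axis, percent, from 0 to 100) held by Gm8332, Gm5662, Eif1a and the other 18 genes in each library (x axis). Gm8332 holds 37.5% to 37.9% of the counts in control and 42.9% to 45.3% in NFL, and the part held by the other 18 genes is small throughout.

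How far a read can be placed depends on its length, which is not given in the sources used here, so exact windows of the annotated transcripts were counted at 4 lengths. No 50-base, 75-base or 100-base window of Gm8332 was found in that gene only (0 of 386, 0 of 361 and 0 of 336), and 27 of 286 (9.44%) were at 150 bases. At 100 bases, Gm8332 shared 204 of its 336 windows with Gm2016, 171 with Gm5662, 136 with Gm8300 and 0 with Eif1a. Gm5662 could be told from all other genes in 41.6% of its 100-base windows and 59.7% of its 150-base windows, and Eif1a in 100% at both lengths. Gm5541 was easier to place, with 62.8%, 82.4%, 90.3% and 98.2% of windows found in no other gene at 50, 75, 100 and 150 bases.

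These windows bear differently on the counts of the 2 genes. Gm8332 was counted at 26202 reads over the 6 libraries although few of its windows are its own, so its count depends on how reads with several alignments were assigned, which is not stated in the sources used here. Gm5541 was counted at 15015 reads, while the only transcripts that shared its 100-base windows, those of Tdpoz4 and Gm4858, were counted at 5 and 294. These counts depend on the same unstated assignment of reads, and sequence outside annotated transcripts was not searched.

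**Figure D4:**
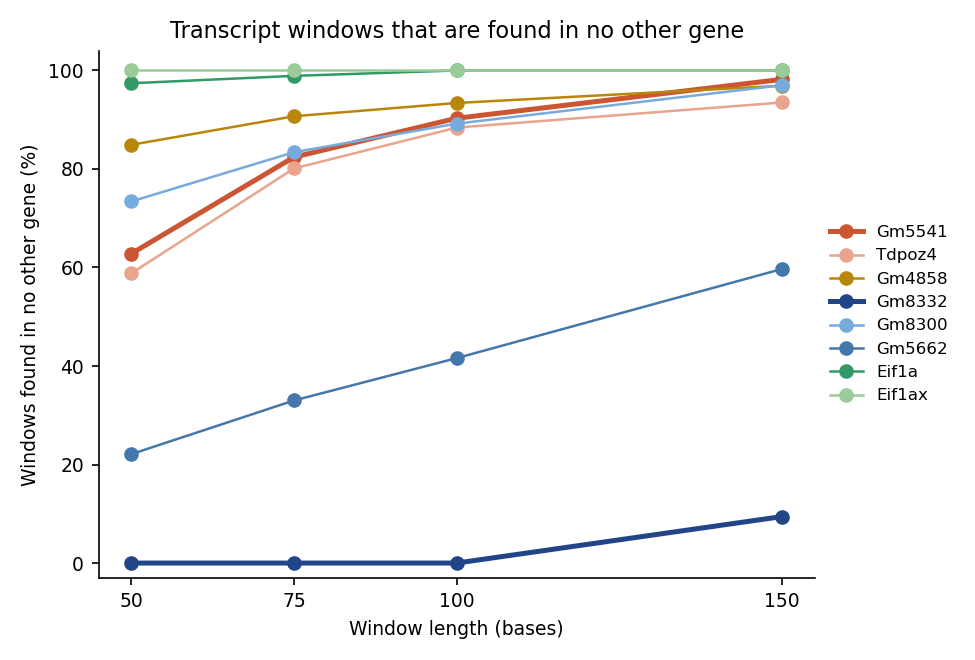
Percent of distinct transcript windows that were found in no other annotated transcript (y axis) against window length in bases (x axis) for Gm5541, Gm8332 and their relatives. Gm8332 stays at 0% up to 100 bases and reaches 9.44% at 150 bases, whereas Gm5541 climbs from 62.8% to 98.2%.

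Genes around Gm5541 were mostly silent. Of 53 annotated genes within 500 kb, 30 were at 0 in all libraries, as were 26233 of all 55401 genes. Of the 53, 3 could be tested, of which 1 was higher and 0 were lower (background 3.47% and 3.53%). That gene was Gm38207 (chr3:93638044-93641548, plus strand), a transcript whose kind the annotation leaves to be determined, 8292 bases from Gm5541 on the opposite strand. It had 4.14, 2.95 and 3.56 CPM in control and 5.41, 5.70 and 4.93 CPM in NFL (log2 fold change 0.57, SE 0.181, adjusted p = 0.043, edgeR). Its transcript shared no window of 50 bases with Gm5541. The call was fragile: without control replicate 2 or 3, or without NFL replicate 1, 2 or 3, the adjusted p was 0.13, 0.0953, 0.103, 0.17 and 0.09 in turn by edgeR. The other tested neighbours, the calcium-binding protein genes S100a10 and S100a11, had log2 fold changes of 0.06 (SE 0.175, adjusted p = 0.917) and -0.06 (SE 0.0473, adjusted p = 0.579, both edgeR), with overlap between groups.

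Within 500 kb of Gm8332, 80 genes were in the table and 17 could be tested. Only Gm5662, 20540 bases away, passed the test (5.88% of the 17 were higher and 0 were lower, close to the background of 3.47% and 3.53%). The estimates were above 0 for 14 of the 17 and their median was 0.23, against 6985 of 14082 and 0.00 over all genes tested. Leaving out the similar genes, 12 neighbours remained, 11 with estimates above 0 (median 0.29) and 0 called at the adjusted threshold or at an unadjusted p of 0.05. Gm48560, a processed pseudogene 961 bases from Gm8332, had 3.29, 3.76 and 3.93 CPM in control and 4.22, 4.83 and 3.79 CPM in NFL (log2 fold change 0.23, SE 0.19, adjusted p = 0.584, edgeR). The protein-coding neighbour Adck1, a mitochondrial kinase-like gene, had 44.4, 49.0 and 40.5 CPM in control and 47.5, 49.5 and 47.1 in NFL (log2 fold change 0.11, SE 0.0624, adjusted p = 0.332, edgeR), with overlap.

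**Figure D5:**
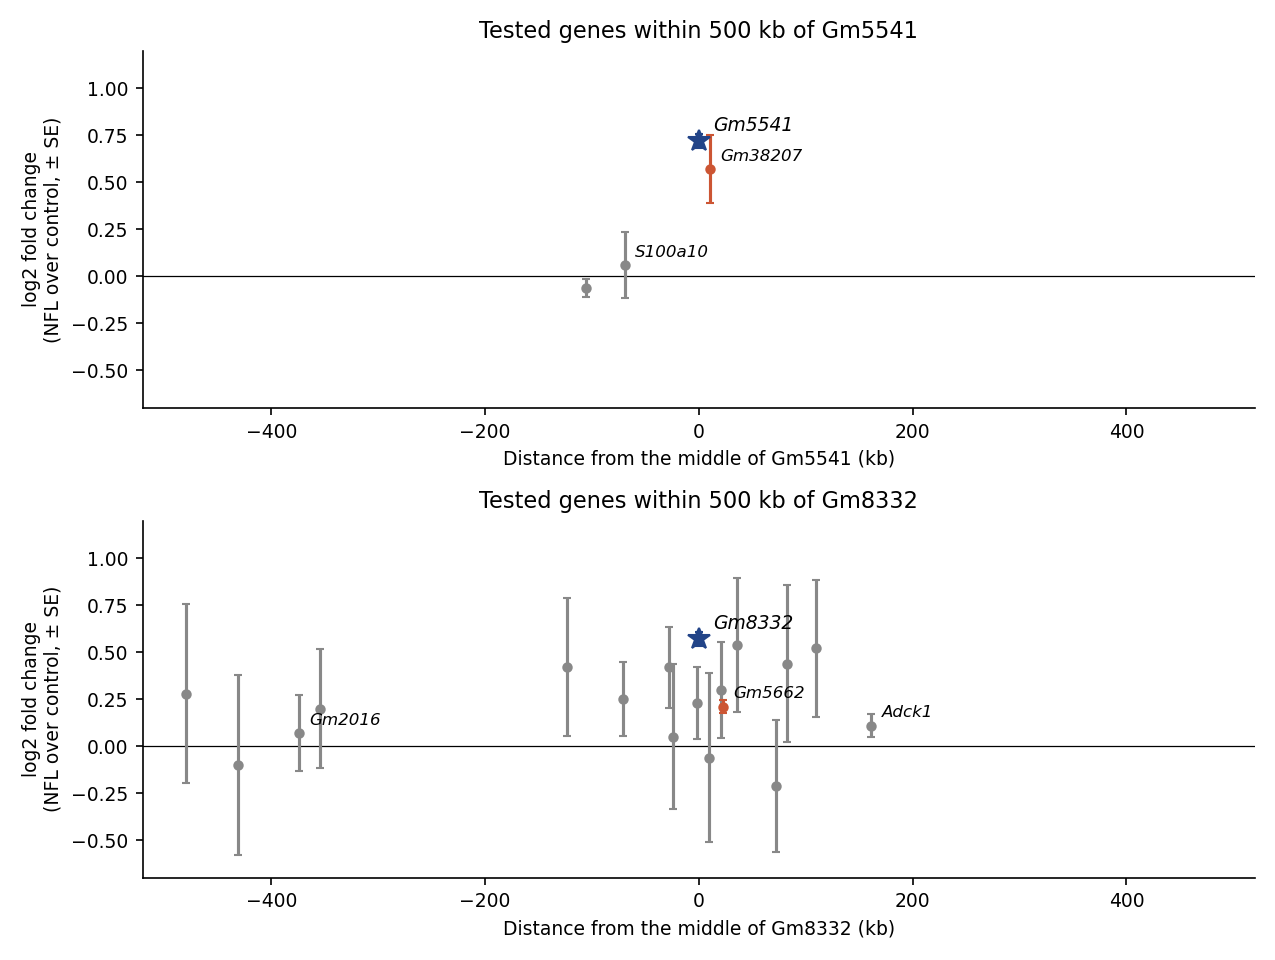
Log2 fold change of NFL over control with its SE (y axis) against distance in kb from the middle of the gene (x axis) for the tested genes within 500 kb of Gm5541 (top, 3 neighbours) and Gm8332 (bottom, 17 neighbours). Stars are Gm5541 and Gm8332, orange points passed an adjusted p of 0.05 (Gm38207 and Gm5662), and grey points did not.

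The genes whose log2 CPM followed each gene most closely over the 6 libraries were found by Pearson's r, which mostly reflects the shared step between the 2 groups of 3 libraries. For Gm5541 these were Inf2 (r = 0.999), an actin-regulating formin, Relb (0.997) and Nfkb2 (0.996), both NF-κB subunits, Odc1 (0.996), ornithine decarboxylase, and Il24 (0.996), a cytokine of the IL-10 family. Relb had 17.9, 18.4 and 18.3 CPM in control and 37.5, 36.6 and 39.0 in NFL, and Inf2 had 16.7, 18.3 and 17.3 against 30.9, 30.7 and 31.3. For Gm8332 they were Mapkapk2 (r = 0.996), a kinase downstream of p38, Gm5662 (0.996), Cct4 (0.993), a subunit of the CCT chaperonin, AI506816 (0.992) and again Il24 (0.992). Their log2 fold changes were far apart, from 0.07 for AI506816 to 0.49 for Il24, so likeness of pattern did not mean likeness of size. Gm5541 and Gm8332 followed each other with r = 0.981, which put Gm8332 at rank 47 in the list of Gm5541 and Gm5541 at rank 25 in the list of Gm8332.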

How the data were processed

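The authors deposited raw read counts per gene, without normalization, for 6 poly(A)-selected libraries, and 0 columns were left without a sample. The submitters' notes name GRCm39, R 4.2.1 and limma 3.54.2, whereas 54349 of the 55401 identifiers, both members included, were identical to GENCODE M21 (GRCm38), whose coordinates and transcripts are used here. The aligner, counter, strand, read length and handling of reads with several alignments are not given in the sources used here.

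Counts were analysed in R 4.3.3 with edgeR 4.0.16. Genes were kept by filterByExpr (minimum count 10, minimum total 15), scaled by TMM and tested by the quasi-likelihood method with adjustment after Benjamini and Hochberg (threshold 0.05). The SE is the log2 fold change divided by the root of F. Alternatives included DESeq2 1.42.0 and limma-voom (limma 3.58.1). On simulated counts of 13866 genes with 200 changed, 183 were recovered with 12 false calls. The simulation used the same dispersion for every gene. Its changes were larger than those of Gm5662, Eif1a and the summed similar genes of Gm8332, so recovery of changes that small was not tested. Replicates differed by more than sampling noise (chi-square per degree of freedom 1.89 to 3.41). Similar genes were found with blastn 2.17.0 (at least 95% identity over 150 bases or more), and a near-identical copy was that identity over 80% of a transcript. Sums of genes entered the table as further rows.

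The members and lists were chosen with earlier results of these data known. Named genes were the members, their similar and neighbouring genes with more than 10 counts (low ones summarised), the 5 largest rises and 5 largest falls among predicted genes past the threshold, and the 5 tested genes most like each member. Other genes were named after their values were seen.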

Additional observations from a re-analysis of the deposited data

How the results depend on the processing

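The log2 fold change of Gm5541 stayed between 0.70 and 0.74 and that of Gm8332 between 0.52 and 0.61 under all alternatives of scaling, filter, test, thinning and left-out library, while Gm8332 summed with its similar genes gave 0.33. The sum of the 20 similar genes without Gm8332, which can hold reads of Gm8332, stayed past the threshold in all 15 alternatives (0.16 to 0.18 without 1 library at a time). The alternative at 90% identity held the same 20 genes, so its result was fixed in advance. The share of Gm8332 differed by 6.63 percentage points (6.15 to 7.39 without 1 library at a time). The sum of the 2 genes similar to Gm5541 at 90% identity (log2 fold change 0.88, adjusted p = 0.0156, edgeR) ranged from 0.79 to 0.98 without 1 library at a time and lost its call without NFL replicate 2 (0.80, adjusted p = 0.103). For this sum, Gm4858 and Gm38207 DESeq2 gave no adjusted p.

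The count of 986 genes was 500 at an adjusted p of 0.01 and 31 among genes with a 2-fold or larger change (1 on the log2 scale). Without 1 library at a time it ran from 508 (without NFL replicate 3) to 966, with 616 without NFL replicate 2. Called similar genes numbered 2, or 3 at 90% identity, and 1 to 2 without 1 library at a time. At 99% identity the count of 0 was fixed in advance, because the only such gene, Gm8300, had too few counts to be tested. Called neighbours numbered 2, but 1 without a filter on low counts, by DESeq2, by limma-voom and after thinning, and 1 to 2 without 1 library at a time. In each of these Gm38207 was the gene without a call. Called predicted genes numbered 34, with 13 by DESeq2, which gave no adjusted p for 15 of the 34, and 13 to 42 without 1 library at a time (20 without control replicate 1, 18 without NFL replicate 2, 13 without NFL replicate 3). Called genes with a near-identical copy numbered 20, with 13 by library size alone, 12 by DESeq2, and 7 to 27 without 1 library at a time (7 without NFL replicate 2, 8 without NFL replicate 3). The cause of these shifts was not tested, apart from the fewer samples.

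Signs turned for genes that passed no test. Spopl gave -0.01 by library size alone and -0.04 to 0.04 without 1 library at a time, and Gm2016 gave -0.04 to 0.20. S100a10 gave 0.00 after thinning and -0.07 to 0.21 without 1 library at a time, BB287469 gave 0.00 by limma-voom and -0.44 to 0.16 without 1 library at a time, and Gm5039 gave -0.61 to 0.01.

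The labels do not say whether the replicate numbers pair the samples. The deviations of same-numbered samples from their group means correlated at 0.0115, 0.0148 and 0.00742, and with the replicate block 1049 genes were called. Each number correlated best with its own, a hint from the data at values close to 0. The block changed none of the calls of Gm5662, Eif1a, Gm4858 and Gm38207. Depth limits the copies with few reads: 3 counts were 0.122 to 0.189 CPM.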

Other observations

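Outside the 2 genes, few predicted genes passed the test. Of 1998 other tested genes with a symbol of Gm and digits, 23 (1.15%) were higher and 11 (0.551%) lower in NFL by edgeR, with a median log2 fold change of 0.03, against 3.47% and 3.53% of all genes. The difference between the shares was not tested. The largest rises past the threshold were Gm6244 (log2 fold change 1.79), Gm31392 (1.63), Gm35520 (1.26), Gm16174 (1.18) and Gm23287 (0.97), all at averages of 3.96 CPM or less in NFL. The largest falls were Gm20636 (-1.82), Gm33104 (-1.46), Gm9575 (-1.20), Gm34680 (-0.72) and Gm10390 (-0.69). Of these 10, Gm10390 kept its call in all 14 alternatives, with 7.84, 8.22 and 7.16 CPM in control and 4.97, 4.42 and 4.93 CPM in NFL (adjusted p = 0.0014, edgeR). Gm16174 was no longer called when NFL replicate 1 was left out (adjusted p = 0.0674, edgeR), nor Gm23287 when NFL replicate 2 was (adjusted p = 0.07, edgeR). The other 7 lost their call in 4 to 6 alternatives each. Only alternatives that gave an adjusted p were counted, and for each of these 7 they were fewer than 14.

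Genes with a near-identical copy anywhere in the annotation were called at shares below those of all genes. Without the members, 567 were tested, 16 (2.82%) were higher and 4 (0.705%) lower by edgeR, against 3.47% and 3.53% of all genes. These differences were not tested, and the median log2 fold change was 0.09 against 0.00 over all genes tested. All 3 NFL libraries lay above all 3 control libraries in 71 of them and below in 22, where the background is 11.5% and 11.2%.

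The Tdpoz and Eif1a-like clusters are known from the early embryo, so 20 further genes of that stage were looked up after the counts had been seen. Of these, 11 had at most 3 counts in each library, as had 34483 of all 55401 genes, and none exceeded 0.941 CPM. Their summed level was 2.52 to 2.70 CPM in control and 1.02 to 1.40 CPM in NFL. This sum rests on genes with few counts, and its difference was not tested. Usp17lc, a deubiquitinase gene and the only one past the filter on low counts, had 0.732, 0.941 and 0.778 CPM in control and 0.248, 0.349 and 0.453 CPM in NFL (log2 fold change -1.18, SE 0.488, adjusted p = 0.148, edgeR).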
